A study of Homo sapiens with 6 samples.

Results

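The antioxidant and iron storage genes NQO1, HMOX1, GCLC, GCLM, TXNRD1, SRXN1, GPX4, FTH1 and FTL were followed in liposarcoma cells treated with Apatinib. They were taken as the rows of the deposited gene counts whose name equals 1 of these symbols, which gave 9 of the 57773 genes listed. The samples were SW872 cells, an established human liposarcoma cell line, cultured in RPMI-1640 with 10% fetal bovine serum. One group of 3 was incubated with 18 μM Apatinib, an inhibitor of the VEGFR-2 tyrosine kinase, for 24 h, and the control group of 3 was untreated. The methods name 3 biological replicates per condition, all from this 1 line, and the labels give no vehicle for the control cells. The question put to these genes was whether their transcripts differed between treated and untreated cells.

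NRF2 is a transcription factor that KEAP1 and the CUL3 ubiquitin ligase hold at a low level, and that accumulates under oxidative or electrophilic stress. Paired with a small MAF protein it binds the antioxidant response element and switches on genes of glutathione synthesis, thioredoxin recycling, quinone reduction, heme breakdown and iron storage. Ferroptosis is a form of cell death driven by iron-dependent peroxidation of membrane lipids, which GPX4 counters by reducing lipid hydroperoxides with glutathione, while ferritin, built of FTH1 and FTL chains, keeps iron in a stored form.

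Several short sequences bear on these genes. The first is the core of the antioxidant response element, TGACNNNGC, which was searched on both strands in RefSeq windows that ran from 250 bases before to 50 bases after each annotated start (build GRCh38.p14). Of the 7 genes that had a window in this table, 2 held the core, GCLM and TXNRD1. The core was found in 13.3% of all 35116 windows and in 19.3% of the 10291 tested genes that had one. GCLM held it 34 to 26 bases before the start, on the opposite strand. TXNRD1 held it 99 to 91 bases before one start and, on the opposite strand, 102 to 94 bases before another, and its first window contained a further match nearer to the start that is not shown. The 3 matches are shown with the flanking bases, 5′ to 3′ on the gene's strand and with the core in capitals.
GCLM, chr1:93909436-93909484, minus strand: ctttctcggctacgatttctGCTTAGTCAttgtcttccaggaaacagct
TXNRD1, chr12:104215660-104215708, plus strand: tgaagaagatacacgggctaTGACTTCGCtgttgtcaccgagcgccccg
TXNRD1, second start, chr12:104286910-104286958, plus strand: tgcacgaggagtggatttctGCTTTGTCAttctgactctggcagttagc
A match describes the letters only. The windows of NQO1, GCLC, SRXN1, GPX4 and FTL held no such letters, HMOX1 and FTH1 had no window, and enhancers further from the start were outside these windows.

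A further one is the iron response element, a hairpin in the 5′ untranslated region of both ferritin mRNAs. Iron regulatory proteins bind it when iron is scarce and hold back translation, so that a ferritin transcript level and a ferritin protein level need not move together. The elements were read from the GENCODE 29 transcripts (build GRCh38), lie in exon 1 and are shown with the bases of the loop in capitals.
FTH1, chr11:61967574-61967601, minus strand: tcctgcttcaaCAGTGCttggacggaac
FTL, chr19:48965336-48965363, plus strand: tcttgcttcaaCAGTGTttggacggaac
The 2 elements shared 26 of their 28 bases. The submitters' processing notes name hg19, so these coordinates belong to the reference and not to the deposited counts.

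The libraries held between 17043314 and 22067558 counts. Expression is given as CPM, counts scaled to a common library total with edgeR's TMM factors, and levels of different genes are compared in FPKM, the authors' values scaled to transcript length and to mapped fragments. The replicates were not equally far apart. Controls 1 and 2 differed by a mean chi-square of 2.27 per gene, where counting noise alone gives a value near 1, while every other pair of the same group differed by 18.2 to 44.5. Pairs across the groups differed by 26.5 to 78.4, and the lowest, Apatinib replicate 3 with control 3, was below 2 of the 3 pairs within the Apatinib group. The methods call them biological replicates; if controls 1 and 2 were not independent cultures, the n of 3 controls would be too high and the errors and p-values that rest on it too small. The edgeR quasi-likelihood test was fitted to all 16290 genes with enough counts, and a gene was called when its Benjamini-Hochberg adjusted p was under 0.05 and its log2 fold change was over 0.5 in size, the study's criteria. Of the line's markers, the mesenchymal transcripts VIM (881 to 1263 FPKM) and CD44 (264 to 437 FPKM) were abundant and PPARG was present (19.7 to 27.1 FPKM). The adipocyte markers FABP4 and ADIPOQ and the leukocyte marker PTPRC were listed at 0 in all 6 samples, while LPL, lipoprotein lipase, was higher with Apatinib (log2 fold change 0.84, adjusted p = 0.0237 by the edgeR test). The other markers set for this check, COL1A1, COL1A2, PLIN1, EPCAM, PECAM1 and MLANA, are not given here, so the check is partial.

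All 9 genes had enough counts to be tested. Of these, 3 rose with Apatinib, HMOX1, GPX4 and FTL, and none fell. That is 33.3% of the 9, where 5.97% of all tested genes were called higher, 5.48% lower and 11.5% in either direction. With the adjusted p limit alone, TXNRD1 joined them, 4 of 9 beside 6.83% of all tested genes. The log2 fold change was above 0 in 7 genes and below 0 in GCLC and GCLM, beside 8195 above 0 among all 16290 tested genes. The median was 0.43 beside 0.0028 for all tested genes. It fell to 0.25 without Apatinib replicate 1 and was 0.37 to 0.45 with any other sample left out. In CPM the groups did not overlap for 5 of the 9 genes, 4 above the controls and 1 below, beside 33.2% of all tested genes. The 3 calls changed with single samples. No gene of the 9 was called after leaving out Apatinib replicate 1, control 1 or control 2, or with controls 1 and 2 summed into 1 sample. Without Apatinib replicate 3, 1 was called. Calls over all tested genes also changed, from 1866 to 795, 275, 300, 292 and 2030 in these fits, in that order. In bulk RNA, fewer cells that express a gene and less of its RNA per cell cannot be told apart.

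**Figure D1:**
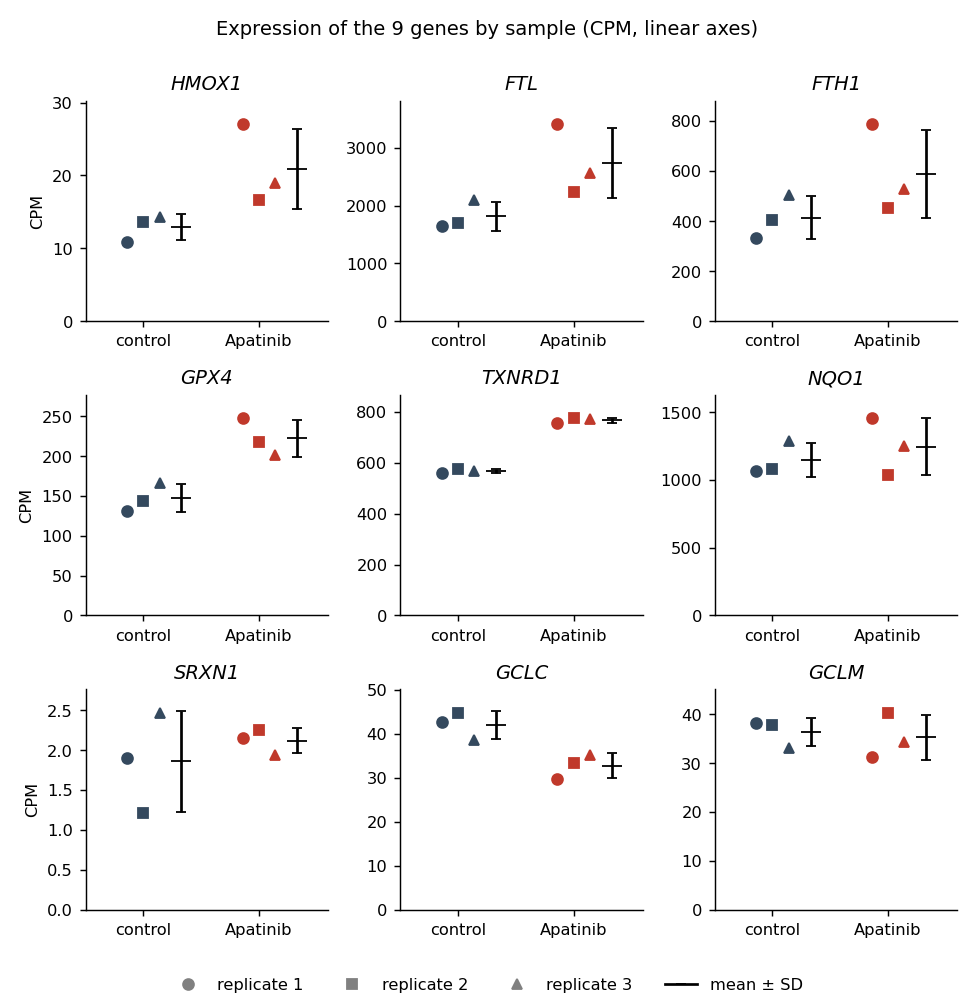
CPM of each of the 9 genes in the 3 control and 3 Apatinib samples on linear axes that start at 0, with the mean and SD of each group beside the points. HMOX1, FTL, GPX4 and TXNRD1 lie above the controls in all 3 Apatinib samples, GCLC lies below, and the remaining 4 genes overlap.

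The first genes handle heme and iron. HMOX1 (ENSG00000100292) encodes heme oxygenase 1, which opens the heme ring and releases iron. It had 27.01, 16.6 and 18.9 CPM in Apatinib replicates 1 to 3 and 10.9, 13.6 and 14.4 CPM in controls 1 to 3. All 3 treated samples were above all 3 controls, and replicate 1 stood well above the other treated samples. The difference was 1.61-fold, a log2 fold change of 0.69 ± 0.20 (SE, n = 3 per group; 95% interval 0.26 to 1.11; adjusted p = 0.0423, edgeR quasi-likelihood test). The adjusted p was 0.138 without Apatinib replicate 1 (log2 fold change 0.46), 0.0553 without Apatinib replicate 3 (0.75), 0.183 without control 1 (0.57) and 0.129 without control 2 (0.72), by the same edgeR test. HMOX1 was not called in the FPKM fits either (difference 0.57, limma adjusted p = 0.0764 on log2(FPKM + 1), and 0.65, adjusted p = 0.111 on log2(FPKM + 0.1)).

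FTL (ENSG00000087086), the ferritin light chain, had 3406, 2233 and 2572 CPM in the treated samples. The controls had 1648, 1698 and 2098 CPM. The groups did not overlap, with replicate 1 again the highest treated sample and control 3, the highest control, close under Apatinib replicate 2. FTL rose 1.51-fold, by 0.59 ± 0.17 on the log2 scale (SE, n = 3 per group; 95% interval 0.22 to 0.96; edgeR adjusted p = 0.0423). By the edgeR test the adjusted p was 0.116 without Apatinib replicate 1 (log2 fold change 0.41), 0.0620 without Apatinib replicate 3 (0.64), 0.182 without control 1 (0.52) and 0.178 without control 2 (0.54).

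FTH1 (ENSG00000167996), the ferritin heavy chain, carries the ferroxidase activity that readies iron for storage. Its level was 786, 451 and 528 CPM with Apatinib and 333, 404 and 503 CPM in the controls. Apatinib replicate 2 lay below control 3, so the groups overlapped. FTH1 was not called, with a log2 fold change of 0.51 ± 0.21 (SE, n = 3 per group; 95% interval 0.06 to 0.96; edgeR adjusted p = 0.121). It was 0.25 without Apatinib replicate 1 and 0.68 without control 3, where FTH1 passed both limits (edgeR adjusted p = 0.0436).

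In the deposited FPKM the FTH1 groups did separate. The treated samples had 2739, 2170.3 and 2230.1 FPKM and the controls 1435, 1346 and 1626 FPKM. Every treated sample was above every control on this scale. Tested with limma on log2(FPKM + 1), the difference was 0.69 (adjusted p = 0.0330), against 0.51 from the counts. FTL had 2624, 1868 and 2099 FPKM with Apatinib and 1360.4, 1344 and 1625 FPKM in the controls, a difference of 0.60 on the log2(FPKM + 1) scale (limma adjusted p = 0.0605). The FTH1 call varied with the settings within each measure. On log2(FPKM + 0.1) it was not called (difference 0.69, limma adjusted p = 0.0608), and from counts with no filter on low values it was called (log2 fold change 0.52, edgeR adjusted p = 0.0060). FTL was not called in either FPKM fit (limma adjusted p = 0.0970 on log2(FPKM + 0.1)).

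The counts and the FPKM of a gene can be set against each other as a length, the CPM divided by the FPKM in kilobases. For FTH1 this came to 259 bases where the longest GENCODE 29 transcript has 1229, a ratio of 0.21 that lies at percentile 2.11 of the tested genes. For SRXN1 it came to 80.2 of 2698 bases, a ratio of 0.0297 at percentile 0.284. The other 7 genes had ratios from 0.939 to 1.44, around the median of 1.19 for all tested genes. FTH1 and SRXN1 thus had few counts for their FPKM.

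**Figure D2:**
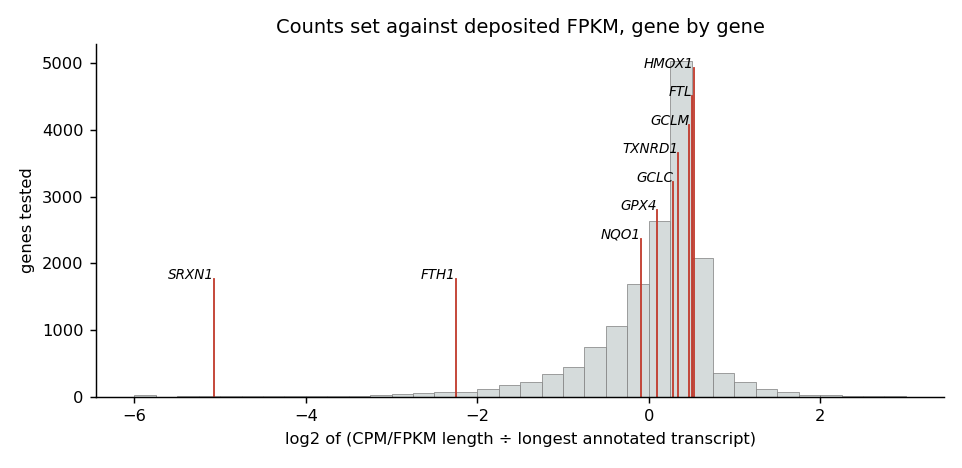
Histogram over all tested genes of the log2 ratio between the length that CPM and FPKM imply and the longest annotated transcript, with the 9 genes marked by red lines whose height has no meaning. SRXN1 (ratio 0.0297) and FTH1 (ratio 0.21) stand far to the left of the other 7 genes.

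Both genes overlap others in the GENCODE 29 annotation. FTH1 shares 62.4% of its exon bases with BEST1, on the opposite strand, and SRXN1 shares 2292 of its 2698 with AL121758.1 (ENSG00000270299), on the same strand. BEST1 had 38 to 120 counts in a library, and ENSG00000270299 had 0 to 2. The annotation, strand setting and treatment of shared reads in the counting are not given in the sources used here. How many reads the overlaps took from FTH1 and SRXN1 was therefore not tested. Adding the counts of ENSG00000270299 left the log2 fold change of SRXN1 at 0.17 (edgeR adjusted p = 0.724). FTH1 has also 25 pseudogene rows in the table, which together held 0.909% to 2.26% of the FTH1 counts. Summed, they had 189, 181 and 192 counts in the treated samples against 103, 83 and 100 in controls 1 to 3, with no overlap. Of the 5 that could be tested 4 were called, counted in either direction. Of all tested genes 11.5% were called in either direction, and 33.2% did not overlap in CPM. Adding them to FTH1 gave a log2 fold change of 0.52, beside 0.51. For FTL there were 16 pseudogene rows with 0.161% to 0.28% of its counts, 1 of the 2 tested was called, and adding them left the log2 fold change of FTL at 0.59. Reads of near-identical copies can be counted for either, so the pseudogene values are uncertain.

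The 2 ferritin chains were then compared within each sample. The FTH1 to FTL ratio of FPKM was 1.04, 1.16 and 1.06 with Apatinib and 1.055, 1.00 and 1.00 in the controls. These ranges overlap. The mean log2 ratio differed by 0.0955 (exact two-sided permutation test, p = 0.2, n = 3 per group, where 0.1 is the smallest possible), and with counts by -0.0889 (exact permutation p = 0.4). Both ferritin genes together took 0.399%, 0.276% and 0.313% of the counts in Apatinib replicates 1 to 3 and 0.202%, 0.211% and 0.258% in controls 1 to 3, so that every treated sample was above every control.

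GPX4 (ENSG00000167468), the selenium-containing glutathione peroxidase that reduces lipid hydroperoxides in membranes, had the smallest p of the 9 genes. Its levels were 247, 218 and 202 CPM with Apatinib and 131, 144 and 167 CPM in the controls. All treated samples were above all controls, and in FPKM as well. GPX4 rose 1.51-fold, by 0.59 ± 0.13 on the log2 scale (SE, n = 3 per group; 95% interval 0.30 to 0.88; edgeR adjusted p = 0.0186). It was also called on log2(FPKM + 1) with limma (difference 0.61, adjusted p = 0.0375) and not on log2(FPKM + 0.1) (difference 0.62, adjusted p = 0.0648). In the edgeR test the adjusted p was 0.0567 without Apatinib replicate 1, 0.116 without control 1 and 0.102 without control 2, with log2 fold changes from 0.51 to 0.57.

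TXNRD1 (ENSG00000198431), the cytosolic thioredoxin reductase and also a selenoprotein, had the least spread of the 9 genes. It measured 756, 774 and 770.0 CPM with Apatinib and 561, 575 and 568 CPM in the controls. The gap between the groups was many times the spread within them. The log2 fold change of 0.43 ± 0.11 (SE, n = 3 per group; 95% interval 0.19 to 0.67; edgeR adjusted p = 0.0294) passed the adjusted p limit and lay under the fold change limit. It stayed between 0.42 and 0.45 when any 1 sample was left out. The adjusted p was then under 0.05 only without Apatinib replicate 2, and 0.0526 without Apatinib replicate 1, just over 0.05 without Apatinib replicate 3, and 0.158, 0.1497 and 0.0558 without controls 1 to 3, all by the edgeR test.

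SRXN1 (ENSG00000271303), the sulfiredoxin that restores overoxidised peroxiredoxins, rested on few counts. There were 37, 40 and 34 counts in the treated samples and 33, 22 and 54 in the controls, or 2.15, 2.25 and 1.94 CPM against 1.90, 1.21 and 2.47 CPM. The treated samples lay within the range of the controls. The log2 fold change was 0.17 ± 0.30 (SE, n = 3 per group, 95% interval -0.48 to 0.82, edgeR adjusted p = 0.732). That interval holds both falls and rises, so these counts do not settle the direction. In FPKM the treated samples, with 27.1, 31.7 and 24.1, were all above the controls, with 21.0, 21.2 and 23.4. That difference of 0.32 on the log2(FPKM + 1) scale did not pass (limma adjusted p = 0.159).

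NQO1 (ENSG00000181019), the quinone reductase often used as a readout of NRF2, did not pass the test. It had 1454, 1036 and 1249 CPM with Apatinib and 1068, 1079 and 1289 CPM in the controls. The lowest of the 6 values was Apatinib replicate 2 and the highest was Apatinib replicate 1. NQO1 had a log2 fold change of 0.12 ± 0.15 (SE, n = 3 per group; 95% interval -0.20 to 0.45; edgeR adjusted p = 0.623), and it was -0.0014 without Apatinib replicate 1.

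The last pair acts in glutathione synthesis. GCLC (ENSG00000001084) is the catalytic and GCLM (ENSG00000023909) the modifier subunit of glutamate-cysteine ligase, the rate-limiting enzyme of glutathione synthesis. GCLC had 29.7, 33.4 and 35.1 CPM with Apatinib and 42.8, 44.8 and 38.5 CPM in the controls. Among the 9 genes GCLC alone had all treated samples below all controls in CPM, while in FPKM the groups overlapped. GCLC did not pass, with a log2 fold change of -0.36 ± 0.13 (SE, n = 3 per group; 95% interval -0.64 to -0.08; edgeR adjusted p = 0.0856).

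GCLM had 31.2, 40.3 and 34.3 CPM with Apatinib and 38.2, 37.8 and 33.1 CPM in the controls, in overlapping ranges. Its log2 fold change was -0.04 ± 0.14 (SE, n = 3 per group; 95% interval -0.34 to 0.26; edgeR adjusted p = 0.869). The GCLC to GCLM ratio of FPKM was 1.37, 1.21 and 1.53 with Apatinib and 1.67, 1.66 and 1.67 in the controls. The controls were nearly the same and all 3 treated samples lay lower. The mean log2 ratio was lower with Apatinib, at 0.45 against 0.74, by an exact two-sided permutation test with p = 0.1, the smallest that 3 against 3 samples allow, so this design could not reach 0.05. The ratio of counts gave the same p.

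Apatinib replicate 1 was the highest treated sample in CPM for HMOX1, FTL, FTH1, GPX4 and NQO1 and the lowest for GCLC, GCLM and TXNRD1. Control 3 was the highest control for HMOX1, FTL, FTH1, GPX4, NQO1 and SRXN1 and the lowest for GCLC and GCLM.

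The fold change of all genes varied with the GC content of the transcript. In 5 groups of equal size, ordered from the lowest to the highest GC content, the median log2 fold change was -0.32, -0.10, 0.05, 0.12 and 0.18. GPX4 (62.5% GC), HMOX1 (58.1%) and FTL (56.3%) were the 3 most GC-rich of the 9 genes, FTH1 had 50.1%, TXNRD1 44.8% and GCLM, with 37.3%, the lowest, where the median of the tested genes was 48.5%. With a GC offset in edgeR the log2 fold changes were 0.39 for GPX4 (adjusted p = 0.0190), 0.50 for HMOX1 (adjusted p = 0.0589) and 0.43 for FTL (adjusted p = 0.0654). None of the 9 genes then passed both limits. GCLM turned from -0.04 to 0.32 (edgeR adjusted p = 0.0825), and TXNRD1 stayed at 0.46 (edgeR adjusted p = 0.0128). What makes the fold change follow GC content was not tested.

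**Figure D3:**
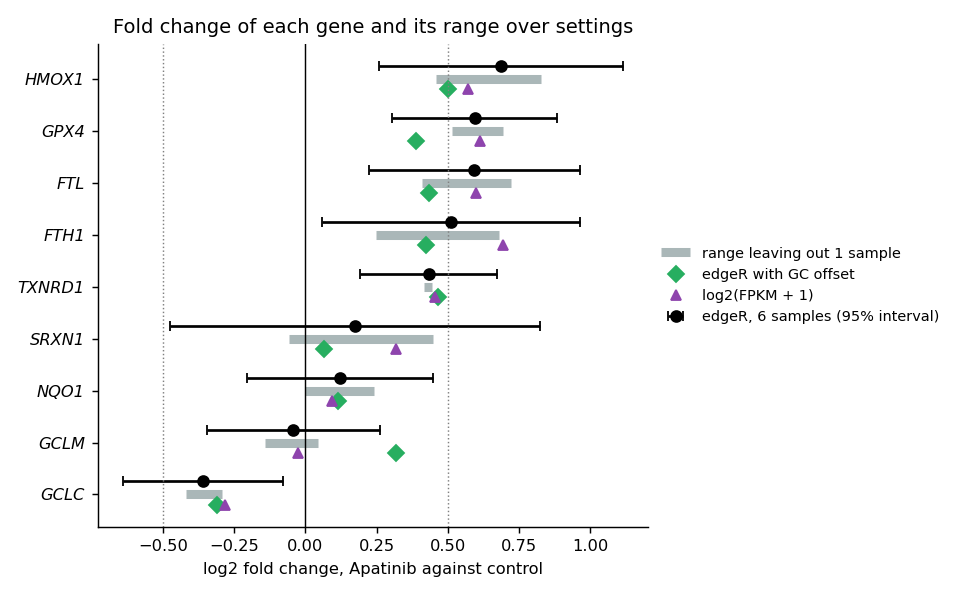
Log2 fold change of each of the 9 genes, with Apatinib above control to the right, from the edgeR fit with its 95% interval (black), the range when 1 sample is left out (grey bar), the GC offset fit (green) and log2(FPKM + 1) (purple). Dotted lines mark the fold change limit of 0.5. TXNRD1 has the narrowest range, 0.42 to 0.45, and GCLM changes side with the GC offset.

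Levels of different genes were compared per length, first by FPKM, by which the 2 ferritin chains were the most abundant of the 9 genes. In the controls FTH1 had 1469 ± 143 and FTL 1443 ± 158 FPKM (SD, n = 3), which do not differ beyond their spread. NQO1 followed with 422 ± 35.03 FPKM. GPX4 had 115 ± 12.1 and TXNRD1 103 ± 2.10 FPKM, apart by about the spread of GPX4. SRXN1 had 21.9 ± 1.33 and GCLC 8.91 ± 1.07 FPKM, and GCLM with 5.35 ± 0.648 FPKM and HMOX1 with 4.91 ± 0.696 FPKM came last and overlapped. With Apatinib the order of the 6 most abundant by FPKM was the same, from FTH1 at 2379.7 ± 312 FPKM to SRXN1 at 27.7 ± 3.82 FPKM. HMOX1, at 7.85 ± 1.77 FPKM, then lay beside GCLC at 7.15 ± 0.926 FPKM, within their spread, and above GCLM at 5.26 ± 0.903 FPKM. Mean CPM per kilobase of the longest transcript gave another order. FTL came first with 2067 in the controls and 3117 with Apatinib. FTH1 had 336 in the controls, below NQO1 with 393, and 479 with Apatinib, above NQO1 with 428. SRXN1 came last, with 0.689 and 0.784. GPX4 and TXNRD1 also changed places in the controls, with 124 and 133, and not with Apatinib, with 188 and 179.

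Other genes of these pathways were read from 5 lists in the same edgeR fit, where 5.97% of all tested genes were called higher and 5.48% lower. Among 13 regulators of NRF2, all tested, 1 rose and none fell, with a median log2 fold change of 0.08. This median ranged from 0.01 without Apatinib replicate 2 to 0.14 without control 3, and was -0.05 with the GC offset. The gene that rose was SQSTM1, p62, an autophagy receptor that binds KEAP1. It had 239, 239 and 203 CPM with Apatinib and 120.4, 119 and 135 CPM in the controls, with no overlap. Its log2 fold change was 0.86 ± 0.12 (SE, n = 3 per group; edgeR adjusted p = 0.0038), and SQSTM1 was called with each of the 6 samples left out in turn, with controls 1 and 2 summed and with the GC offset. CUL3 (log2 fold change -0.53, adjusted p = 0.0664), MAFK (0.43, adjusted p = 0.0739) and NFE2L3 (0.33, adjusted p = 0.0694) did not pass the edgeR test. CUL3 was at -0.33 without Apatinib replicate 2 and at -0.72 without Apatinib replicate 3, where it passed (edgeR adjusted p = 0.0302), and at -0.18 with the GC offset, where MAFK was at 0.21. NFE2L2, which encodes NRF2, and KEAP1, both singled out after their values were seen, had log2 fold changes of -0.45 (edgeR adjusted p = 0.165) and 0.03 (edgeR adjusted p = 0.924). NFE2L2 had 104, 187 and 130.1 CPM with Apatinib and 213, 210.4 and 151 CPM in the controls, in overlapping ranges. Its log2 fold change was -0.27 without Apatinib replicate 1 and -0.70 without Apatinib replicate 2, where NFE2L2 passed both limits as lower (edgeR adjusted p = 0.0342). KEAP1 ranged from -0.08 without Apatinib replicate 1 to 0.14 without control 3, and was not called with any 1 sample left out.

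Of 36 other NRF2 target genes 32 could be tested, and 26 of these had a log2 fold change above 0, beside 8195 of all 16290 tested genes. Of the 32, 7 rose and none fell, beside 5.97% of all tested genes called higher and 5.48% called lower. The median log2 fold change of the 32 was 0.31. ABCC3, an efflux pump of organic anions, went from 22.8, 21.3 and 22.6 CPM in the controls to 35.4, 46.4 and 39.9 CPM with Apatinib. This was a log2 fold change of 0.87 ± 0.14 (SE, n = 3 per group; edgeR adjusted p = 0.0058), called with each sample left out in turn, with controls 1 and 2 summed and with the GC offset, but not on log2(FPKM + 0.1) (difference 0.69, limma adjusted p = 0.0613). AKR1B10, an aldo-keto reductase, rose by 0.90 (edgeR adjusted p = 0.0112), SLC48A1, a heme transporter, by 0.62 (adjusted p = 0.0150) and ME1, the NADPH-forming malic enzyme, by 0.61 (adjusted p = 0.0140). With the GC offset SLC48A1 was at 0.45, under the fold change limit, and AKR1B10 and ME1 stayed called. On log2(FPKM + 0.1) AKR1B10 was the one gene of this list called (limma adjusted p = 0.0487). The other 3 that rose, named after their values were seen, were BLVRB, TRIM16 and TRIM16L, with log2 fold changes of 0.62, 0.54 and 0.61. TRIM16 and TRIM16L are close copies that can share reads, so neither is certain alone. The count of 7 fell to 4 without Apatinib replicate 1, and to 1 without control 1, without control 2 or with the 2 summed. Calls over all tested genes fell in the same fits, from 1866 to 795, 275, 300 and 292.

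Among 24 other genes of ferroptosis defence, 23 of them tested, 1 rose, none fell and the median log2 fold change was 0.03. With 1 sample left out the median ranged from -0.01 (without control 1) to 0.12 (without control 3). The gene that rose was SLC3A2, which forms the cystine importer with SLC7A11. It had 301, 654 and 224 CPM with Apatinib against 204, 185 and 187 CPM in the controls, so Apatinib replicate 2 stood far above the rest. The log2 fold change of 1.03 ± 0.30 (SE, n = 3 per group; edgeR adjusted p = 0.0453) was 0.46 without that replicate (edgeR adjusted p = 0.0551), and the adjusted p was 0.0555, 0.123 and 0.141 without Apatinib replicate 1, control 1 and control 2, at log2 fold changes of 1.20, 1.07 and 1.00. SLC7A11 itself, singled out after its values were seen, had 52.6, 105 and 64.7 CPM with Apatinib and 89.8, 89.5 and 38.9 CPM in the controls (log2 fold change 0.03, edgeR adjusted p = 0.959). Leaving out Apatinib replicate 1 or 2 moved SLC7A11 to 0.23 or -0.30. GCH1, CISD1 and SEPHS2 had log2 fold changes of 0.39, -0.36 and 0.30 and did not pass (edgeR adjusted p = 0.108, 0.121 and 0.117).

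In the list of iron uptake and lipid peroxidation, 18 of 24 genes were tested, with 1 higher, 2 lower and a median log2 fold change of 0.09. With 1 sample left out the median ranged from 0.03 (without Apatinib replicate 1) to 0.15 (without control 3). TFRC, the transferrin receptor that brings iron into the cell, is read beside ferritin because its mRNA also carries iron response elements. It had 151, 91.1 and 185 CPM with Apatinib and 246, 245 and 252 CPM in the controls, all 3 treated samples below all controls. TFRC fell by 0.80 on the log2 scale (SE 0.20, n = 3 per group; edgeR adjusted p = 0.0300). The adjusted p of TFRC was 0.0647 without Apatinib replicate 1, 0.0974 without control 1, 0.0973 without control 2 and 0.0816 with the GC offset, at log2 fold changes of -0.84, -0.81, -0.81 and -0.62. IREB2, which encodes iron regulatory protein 2, had 82.1, 86.9 and 110 CPM against 155, 149 and 120.1 CPM. It fell by 0.61 on the log2 scale (SE 0.15, n = 3 per group; edgeR adjusted p = 0.0262). With the GC offset IREB2 was at -0.27 and not called (edgeR adjusted p = 0.0735), and its adjusted p was 0.0795 and 0.0570 without Apatinib replicates 1 and 2 and 0.129 and 0.121 without controls 1 and 2, at log2 fold changes from -0.57 to -0.52. SAT1, a polyamine acetyltransferase, rose by 0.57 (edgeR adjusted p = 0.0460), and SLC39A14, a zinc and iron importer, had a log2 fold change of 0.59 that did not pass (edgeR adjusted p = 0.0571). SAT1 was not called with any of 5 samples left out, at 0.38 without Apatinib replicate 2, and was called without Apatinib replicate 3 (0.70, edgeR adjusted p = 0.0305). SLC39A14 was at 0.30 without Apatinib replicate 2 and passed without Apatinib replicate 3, at 0.73 (edgeR adjusted p = 0.0368). No gene of this list was called without Apatinib replicate 1, control 1 or control 2, and 1 was called without Apatinib replicate 2 and 5 without Apatinib replicate 3. Calls over all tested genes were 795, 275, 300, 1493 and 2030 in these fits, in that order, beside 1866 with all samples.

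**Figure D4:**
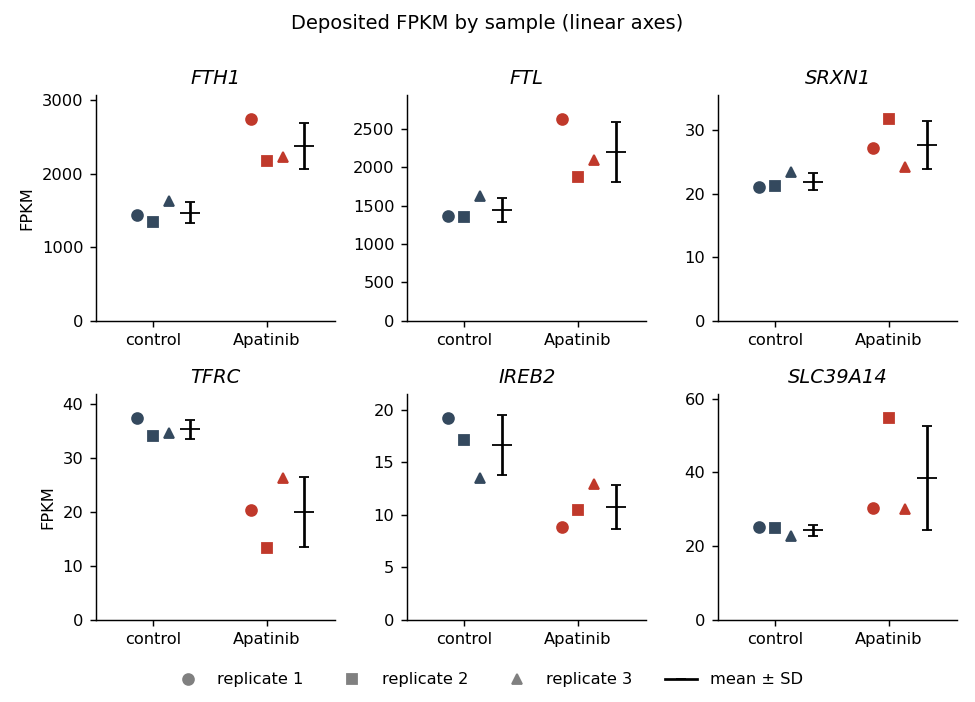
Deposited FPKM of 6 genes by sample on linear axes that start at 0, with the mean and SD of each group beside the points. Both ferritin genes and SRXN1 lie above the controls in every Apatinib sample and SLC39A14 likewise, while TFRC and IREB2 lie below.

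The relatives of the 9 antioxidant genes made up the last list, of which 19 of 20 were tested, with 3 higher, 1 lower and a median log2 fold change of 0.12. TXNRD3, a thioredoxin and glutathione reductase, rose by 0.71 (edgeR adjusted p = 0.0130). The peroxidases GPX7 and PRDX5 rose by 0.58 and 0.56 (edgeR adjusted p = 0.0257 and 0.0318). TXNIP, an inhibitor of thioredoxin, fell by 0.77 (edgeR adjusted p = 0.0418), with 304, 491 and 234 CPM against 598, 536 and 622 CPM. TXNIP was at -0.69 and -0.56 without Apatinib replicates 1 and 3 and was not called there (edgeR adjusted p = 0.119 and 0.0912), and with the GC offset PRDX5 was at 0.36 and GPX7 at 0.49, under the fold change limit. The row of TXNIP was not matched to a GC content and so was not in the GC offset fit. The count of 4 was 1 without Apatinib replicate 1 and 0 without control 1 or control 2, where calls over all tested genes fell as well. Shares of 7.69%, 21.9%, 4.35%, 16.7% and 21.1% of the tested genes in the 5 lists, in the order given, were called in either direction. The last 2 and the NRF2 targets lay above the 11.5% of all tested genes, and no list was tested as a set.

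**Figure D5:**
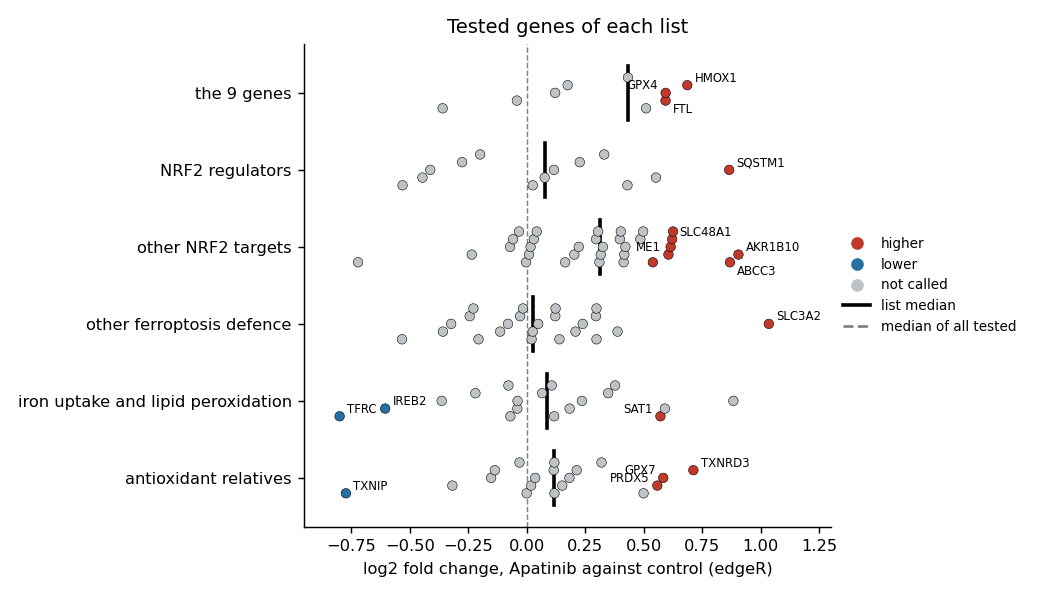
Log2 fold change of every tested gene in the 9 genes and the 5 lists, coloured by call, with the median of each list as a black bar and the median of all tested genes as a dashed line. The medians of the 9 genes (0.43) and of the other NRF2 targets (0.31) lie furthest from 0, and genes called lower appear in the iron list and among the antioxidant relatives.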

How the data were processed

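RNA from 3 Apatinib and 3 control samples was sequenced by the authors. The authors deposited counts per gene, whole and not normalized, and FPKM values, normalized to transcript length and mapped fragments. The submitters' processing notes name CASAVA, STAR 2.7.1a and hg19; the counting program, annotation and FPKM program are not given in the sources used here. In the FPKM values of Apatinib replicate 1, 1 column headed as a control sample was not used.

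Counts were filtered with filterByExpr (16290 of 57773 genes kept), scaled by TMM and tested with the quasi-likelihood F test of edgeR 4.0.16 in R 4.3.3, adjusted by Benjamini-Hochberg over all tested genes. Called genes passed an adjusted p of 0.05 and a log2 fold change of 0.5 in size. The common biological coefficient of variation was 0.149, and p-values measure the spread between these samples of 1 cell line. Ratios were compared by exact permutation tests over samples. Alternatives were DESeq2 1.42.0, its size factors, no filter, the replicate number as a block, each sample left out, and controls 1 and 2 summed. A GC offset was also fitted (loess, span 0.3, for the 97.1% of genes matched to a GC content). The last was a limma 3.58.1 fit of FPKM (mean over 0.5) on the log2 scale with a pseudocount of 1 or 0.1. Added after seeing the data were pseudogene or overlapping-gene counts and ratios of counts. The edgeR, replicate block, DESeq2 and limma fits were also run on simulated counts, with an outcome not given here. Those counts had independent samples of equal spread, unlike the unequal distances between these samples. The GC offset and the permutation tests were not part of that run. GC content, lengths and overlaps came from GENCODE 29.

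The 9 genes and the 5 lists were chosen with earlier results of these data known. Named were the 9 genes, their pseudogenes as sums, and the 4 genes with the smallest p of each list; others are marked in the text as chosen after their values were seen, as are the markers that check the line. The labels name no pairing of the groups by replicate number. Deviations of same-numbered samples correlated at -0.259, 0.0808 and -0.220 across genes. Differently numbered samples are not given beside them, so these values cannot decide whether the groups were paired. Of the list genes, 12 had too few counts to be tested.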

Additional observations from a re-analysis of the deposited data

How the results depend on the processing

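With DESeq2 or its size factors the count of the 9 genes called remained 3, with no filter it was 4, with the adjusted p limit alone 4 and with log2(FPKM + 1) 2. It was 0 with controls 1 and 2 summed, with the GC offset and with log2(FPKM + 0.1). The replicate block, which the labels' numbers do not justify as a pairing, left it at 3, and gave 2 NRF2 regulators and 5 iron and lipid peroxidation genes. With no filter these 2 lists had 3 and 5 calls, and with DESeq2 the regulators had 2 and the ferroptosis defence list 0. With controls 1 and 2 summed, 1 other NRF2 target was called and 0 genes of the ferroptosis, iron and relatives lists. The GC offset gave 4 other NRF2 targets, 0 ferroptosis, 1 iron and 2 relatives, where TXNIP was not in the fit. With log2(FPKM + 1) there were 0, 0 and 2 in the last 3 lists, and with log2(FPKM + 0.1) 1 other NRF2 target and 0 in the last 3.

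Over the 6 fits with 1 sample left out, 0 to 4 of the 9 genes were called, 1 to 2 regulators, 1 to 10 other NRF2 targets, 0 to 1 of ferroptosis defence, 0 to 5 of the iron list and 0 to 4 relatives. Over all genes the calls were 1866, and 795 without Apatinib replicate 1, 275 without control 1, 300 without control 2, 292 with these 2 summed, 733 with log2(FPKM + 1), 328 with log2(FPKM + 0.1), 1369 with the GC offset and 2559 with no filter. They were 2594 without control 3, 2215 with the replicate block and 2046 with DESeq2. Of the calls 52.1% were higher, and 72.2% and 83.8% with the 2 FPKM settings, 65.8%, 69.8%, 71.7% and 70.9% without Apatinib replicate 1, control 1 or control 2 or with these controls summed, 56.8% with the GC offset, and 42.5%, 47.3% and 48.7% without control 3, with the replicate block and with DESeq2. With 1 sample left out, the log2 fold change ranged from -0.0014 (without Apatinib replicate 1) to 0.242 for NQO1, from -0.143 to 0.0425 (without Apatinib replicate 1) for GCLM and from -0.0564 (without control 2) to 0.448 for SRXN1. With the GC offset GCLM was at 0.317 and CISD1 at 0.0485, and the FTH1 to FTL ratio was -0.0889 with counts. The cause of these changes was not tested. Counts of 22 to 54 limit SRXN1.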
